A study of Mus musculus with 3 samples.

Results

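The genes described here are 8 markers used to tell the fibroblasts of the synovial lining from those of the sublining, chosen by name. Clic5, Tspan15, Htra4 and Cd55 stand for the lining, and Thy1, Comp, Smoc2 and Apod for the sublining. All 8 were found among the 56833 genes of the deposited table.

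The synovium is the soft tissue that wraps a joint cavity. Its lining is a thin sheet of fibroblasts and macrophages that faces the cavity and secretes lubricin and hyaluronan. Beneath it lies the sublining, a looser connective tissue in which fibroblasts surround vessels, nerves and fat. Podoplanin (Pdpn) is carried by synovial fibroblasts of both layers, and the surface protein THY1 is commonly used to separate sublining fibroblasts from those of the lining.

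Cells were taken from ankle synovium of mice of the genotype Efhd1CreER; Ai9, in which a Cre recombinase fused to an estrogen receptor domain is expressed from Efhd1 and switches on the red reporter tdTomato. Cells positive for tdTomato were sorted and are called telocytes by the labels; all 3 groups share this genotype, sort and source. For 24 h they then grew on plates coated with collagen, of a stiffness of 0.2 kPa in the soft, 8 kPa in the intermediate and 64 kPa in the stiff group. The question was whether stiffness moves such cells toward fibroblasts. Up to 2 synovia were digested in a tube, so a library may hold cells of several joints, and Cre driven by Efhd1 limits the model to cells that had expressed that gene.

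Each level had 1 library, of 25487064 reads (soft), 28081600 reads (intermediate) and 26474862 reads (stiff). No difference below therefore has a replicate check, no p-value is given, and a difference between cultures cannot be told apart from one between stiffness levels. Intervals are 95% intervals of counting error alone, exact Poisson intervals for a level and exact Clopper-Pearson intervals for a ratio. Levels are normalized counts, which are reads divided by a size factor per library, unless given per kilobase. In bulk RNA, fewer cells of a type and less RNA per cell cannot be told apart.

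The label was first set beside markers of the sorted cells. Pdpn was covered by 23113 normalized counts at 0.2 kPa, 22839 at 8 kPa and 25084 at 64 kPa, and Pdgfra, the platelet-derived growth factor receptor of fibroblasts and telocytes, by 5884, 6298 and 5118. Cd34, a surface protein also used to name telocytes, stood at 235, 242 and 318, and Efhd1 itself at 10, 5 and 3 reads. Macrophage genes were abundant too. All 12 listed macrophage genes had reads in every library, and their summed level was 28468 normalized counts at 0.2 kPa, 35159 at 8 kPa and 61449 at 64 kPa. Between stiff and soft 9 of them at least doubled, Lyz2, Csf1r, Cd68, Adgre1, Mrc1, C1qa, C1qb, Ptprc and Marco, with log2 ratios from 1.04 to 2.00. For scale, 428 (3.6%) of the 11873 genes averaging 50 or more doubled or halved between these libraries, 382 of them upward.

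Levels of different genes were compared as RPKM, the reads per kilobase of exon and per 1000000 reads of the library. On this scale Comp, Thy1 and Smoc2 stood far above the other 5 markers in every library. Comp averaged 424 over the 3 libraries, Thy1 90.9 and Smoc2 50.3. Apod, at 1.68, was the exception in the sublining set and lay beside Cd55 at 1.27 and Htra4 at 1.03. Tspan15 averaged 0.0358 and Clic5 0.0319. Among the 14000 genes that averaged at least 10 normalized counts and had a known exon length, Comp lay at percentile 99.5, Thy1 at 97.2 and Smoc2 at 94.8, and the level of Clic5 was below that of all but 0.171% of them.

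Neighbours in this order were then compared by their counting intervals. Comp, Thy1 and Smoc2 were separated from each other in all 3 libraries. In the soft library Apod, at 1.80 (1.51 to 2.13), lay above Cd55, at 1.27 (1.09 to 1.46). Their intervals overlapped in the intermediate and stiff libraries. Those of Cd55 and Htra4, and those of Tspan15 and Clic5, overlapped in every library. With the canonical transcript as the length, an alternative chosen after the data had been seen, the order of the 8 genes was the same. Levels shifted, with Smoc2 at 165, Thy1 at 216 and Comp at 520, because the exons of these genes add up to more than one transcript.

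**Figure D1:**
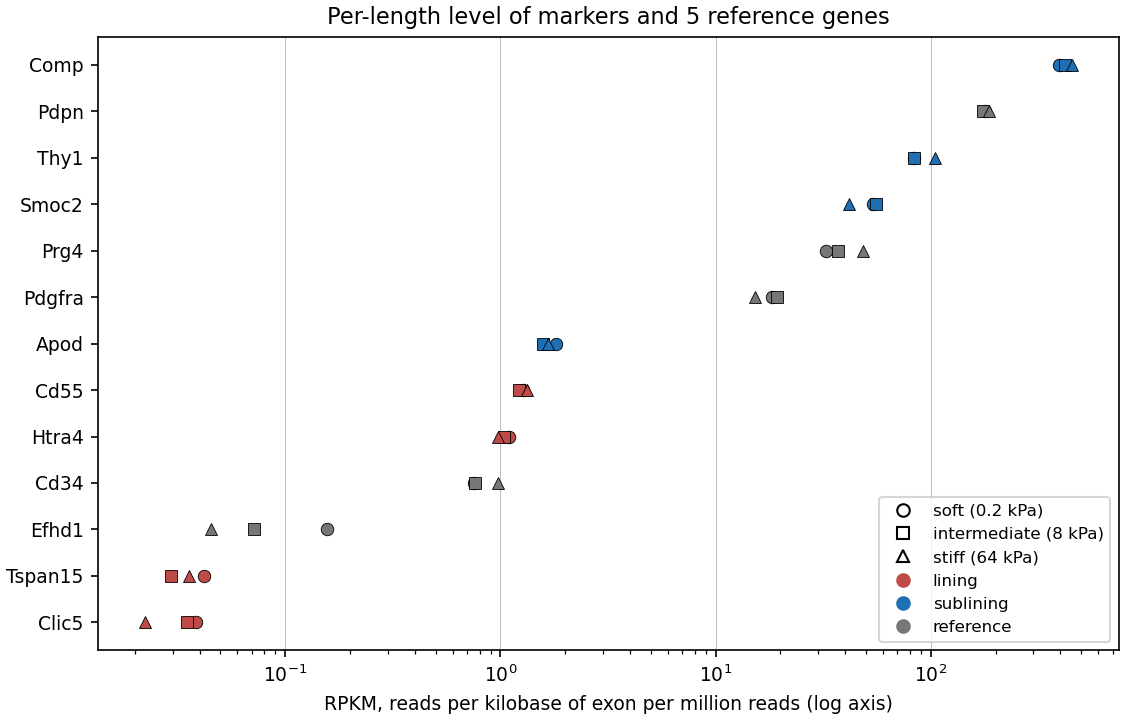
RPKM on a log axis, for the 4 lining markers (red), the 4 sublining markers (blue) and 5 reference genes (grey); circles are the soft, squares the intermediate and triangles the stiff library. Comp, Thy1 and Smoc2 lie between 41.9 and 455, the other 5 markers between 0.0222 and 1.80.

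Prg4, which encodes lubricin and is a further marker of the lining, did not share the low level of the 4 lining genes. It averaged an RPKM of 39.5, close to Smoc2 and above Pdgfra at 17.6. Thus a gene of the lining was abundant in these libraries while Clic5, Tspan15, Htra4 and Cd55 were not. The 4 sublining markers together took 0.206% of all reads at 0.2 kPa, 0.216% at 8 kPa and 0.222% at 64 kPa. The 4 lining markers had 279, 292 and 286 reads in all.

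Clic5 encodes a chloride intracellular channel protein that binds the actin linkers of the ezrin family. The gene lies at chr17:44445659-44591590 (plus strand; coordinates here are of GRCm39). It had 10 reads at 0.2 kPa, 10 at 8 kPa and 6 at 64 kPa. Its stiff to soft log2 ratio was -0.65, and the counting interval from -2.48 to 0.87 holds 0. A change smaller than about that interval could not have been detected at this depth.

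Tspan15, at chr10:62021174-62067051 (minus strand), encodes a tetraspanin that escorts the protease ADAM10 to the cell surface. Its reads were 9 at 0.2 kPa, 7 at 8 kPa and 8 at 64 kPa. The stiff to soft log2 ratio of -0.15 had an interval from -1.74 to 1.38. Neither Clic5 nor Tspan15 reached a mean of 10 normalized counts, so they enter no median below.

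Htra4 encodes a secreted serine protease of the HtrA family and lies at chr8:25514945-25528990 (minus strand). It had 70.7 normalized counts at 0.2 kPa, 67.9 at 8 kPa and 65.6 at 64 kPa, with overlapping intervals. Its stiff to soft ratio, in log2, was -0.11 (-0.62 to 0.40). Its exons share 149 nt with Tm2d2, a gene on the opposite strand with 2580, 2637 and 2415 reads. They also share 792 nt with Gm16933, a gene model on the opposite strand with 1, 0 and 5 reads. Whether the counting used strand is not given in the sources used here, so the reads of Htra4 are uncertain.

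Cd55 encodes decay-accelerating factor, a membrane protein that breaks up the convertases of complement and protects the cell that carries it. It lies at chr1:130366469-130390926 (minus strand). A gene model on the opposite strand, Gm16083, shares 679 nt of exon with Cd55 and had 0 reads in every library. The count of Cd55 is therefore uncertain as that of Htra4 is. The libraries gave 196 normalized counts (soft), 191 (intermediate) and 213 (stiff), and all 3 intervals overlapped. Its stiff to soft log2 ratio was 0.12 (-0.17 to 0.41) and the intermediate to soft ratio -0.03 (-0.33 to 0.26). After subtraction of the trend of ratios with transcript length and GC content they were 0.26 and 0.02. With scaling to total reads or to the upper quartile the stiff to soft ratio was 0.07.

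The mouse has a second copy of this gene, Cd55b, which had 0 reads in every library. A count of 0 allows up to 3 reads, or 3.08, 2.83 and 3.08 normalized counts in order of stiffness. The canonical transcripts were 92.9% identical over 1203 aligned bases, with a longest identical run of 198 bases, so reads within such a run cannot be assigned to one copy. A coding stretch of 90 bases from each GENCODE transcript is shown to let the copies be compared. It starts at base 607 of Cd55 and base 201 of Cd55b, and capitals mark the 3 bases at which they differ.
Cd55: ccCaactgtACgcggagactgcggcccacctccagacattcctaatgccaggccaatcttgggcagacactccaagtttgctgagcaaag
Cd55b: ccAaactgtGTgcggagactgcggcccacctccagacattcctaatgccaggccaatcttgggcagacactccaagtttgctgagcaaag

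Thy1 is a small protein held to the membrane by a lipid anchor, and it binds integrins on neighbouring cells. The gene lies at chr9:43954332-43959880 (plus strand). Its level was 9842 normalized counts at 0.2 kPa (9646 to 10041), 9953 at 8 kPa (9764 to 10145) and 12741 at 64 kPa (12518 to 12967). The soft and intermediate intervals overlapped, and the stiff library stood above both. The stiff to soft log2 ratio was 0.37 (0.33 to 0.41), a level 29.5% higher, and the stiff to intermediate ratio 0.36 (0.32 to 0.39). The stiff to soft ratio was 0.32 with scaling to total reads and 0.31 with scaling to the upper quartile. Between intermediate and soft the ratio was 0.02, and the sign of that small ratio flipped with either scaling.

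Thy1 is also a classical marker of T cells. Of the 9 listed T, B and mast cell genes, 5 had no read in any library, among them Cd3e and Cd4, and Cd8a had 1 read in all. The mast cell and basophil gene Mcpt8 had 1106, 806 and 724 reads in order of stiffness, and Kit 41, 41 and 44. Macrophage genes were higher in the same library as Thy1: the 12 listed summed to 61449 normalized counts in the stiff and 28468 in the soft library. Their part in the level of Thy1 was not tested.

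Comp encodes cartilage oligomeric matrix protein, a member of the thrombospondin family that binds collagen fibrils in cartilage, tendon and synovium. It lies at chr8:70826192-70834716 (plus strand). Its level was 30733 normalized counts at 0.2 kPa (30386 to 31083), 33310 at 8 kPa (32963 to 33659) and 36845 at 64 kPa (36465 to 37228). The 3 intervals did not overlap, and the order followed stiffness. The log2 ratio was 0.12 (0.09 to 0.14) for the step from soft to intermediate, 0.15 (0.12 to 0.17) for that from intermediate to stiff and 0.26 (0.24 to 0.28) for both together. The stiff to soft ratio was 0.17 and the stiff to intermediate ratio 0.06 once the trend with length and GC was removed.

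Because Comp is also made by tendon and cartilage cells, their markers are given beside it. All 5 listed tendon genes had a read somewhere, though Kera had 1 in all, and the tendon sum, mostly Fmod, was 19649, 23750 and 27054 normalized counts in order of stiffness. Fmod encodes fibromodulin, a collagen-binding proteoglycan, and its stiff to soft log2 ratio was 0.48. The other 3 tendon genes with a mean of at least 10 were below 0, with Tnmd at -0.86, Mkx at -0.22 and Scx at -0.04 (0.02 with the trend subtracted), and the tendon median was -0.13. The cartilage collagen gene Col2a1 rose from 209 to 330 and 576 normalized counts, with a stiff to soft log2 ratio of 1.46, which was 0.85, below the threshold used here for a changed gene, with the trend subtracted. The sum over the 7 cartilage and bone genes was 2129, 2614 and 1895. Sp7, a transcription factor of bone-forming cells, fell from 1501 normalized counts in the intermediate to 749.6 in the stiff library, a log2 ratio of -1.0. The part of such cells in the level of Comp was not tested.

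Smoc2 encodes a secreted calcium-binding protein of the SPARC family. The gene lies at chr17:14499735-14625074 (plus strand). Its level was 13041 normalized counts at 0.2 kPa (12816 to 13270), 13678 at 8 kPa (13456 to 13902) and 10577 at 64 kPa (10374 to 10783). Its lowest level was therefore in the library in which Thy1 and Comp were highest. The log2 ratio was -0.30 (-0.34 to -0.26) between stiff and soft, a level 18.9% lower, and -0.37 (-0.41 to -0.33) between stiff and intermediate. Among all 14291 genes with a mean of at least 10, the latter lay at percentile 9.59. The stiff to soft ratio was -0.36 with scaling to total reads or to the upper quartile, and also once the trend with length and GC was removed.

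Apod encodes apolipoprotein D, a lipocalin that carries small lipids. It lies at chr16:31115010-31135355 (minus strand). Its level was 139 normalized counts at 0.2 kPa, 123 at 8 kPa and 133 at 64 kPa, with overlapping intervals. The stiff to soft log2 ratio of -0.06 (-0.42 to 0.29) became 0.02 once the trend with length and GC was removed. A gene model on the opposite strand, Gm41442, shares 782 nt of exon with it and had 62, 68 and 42 reads, so the count of Apod is uncertain as that of Htra4 is. Comp and Smoc2 share 144 and 246 nt of exon with gene models on the opposite strand.

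**Figure D2:**
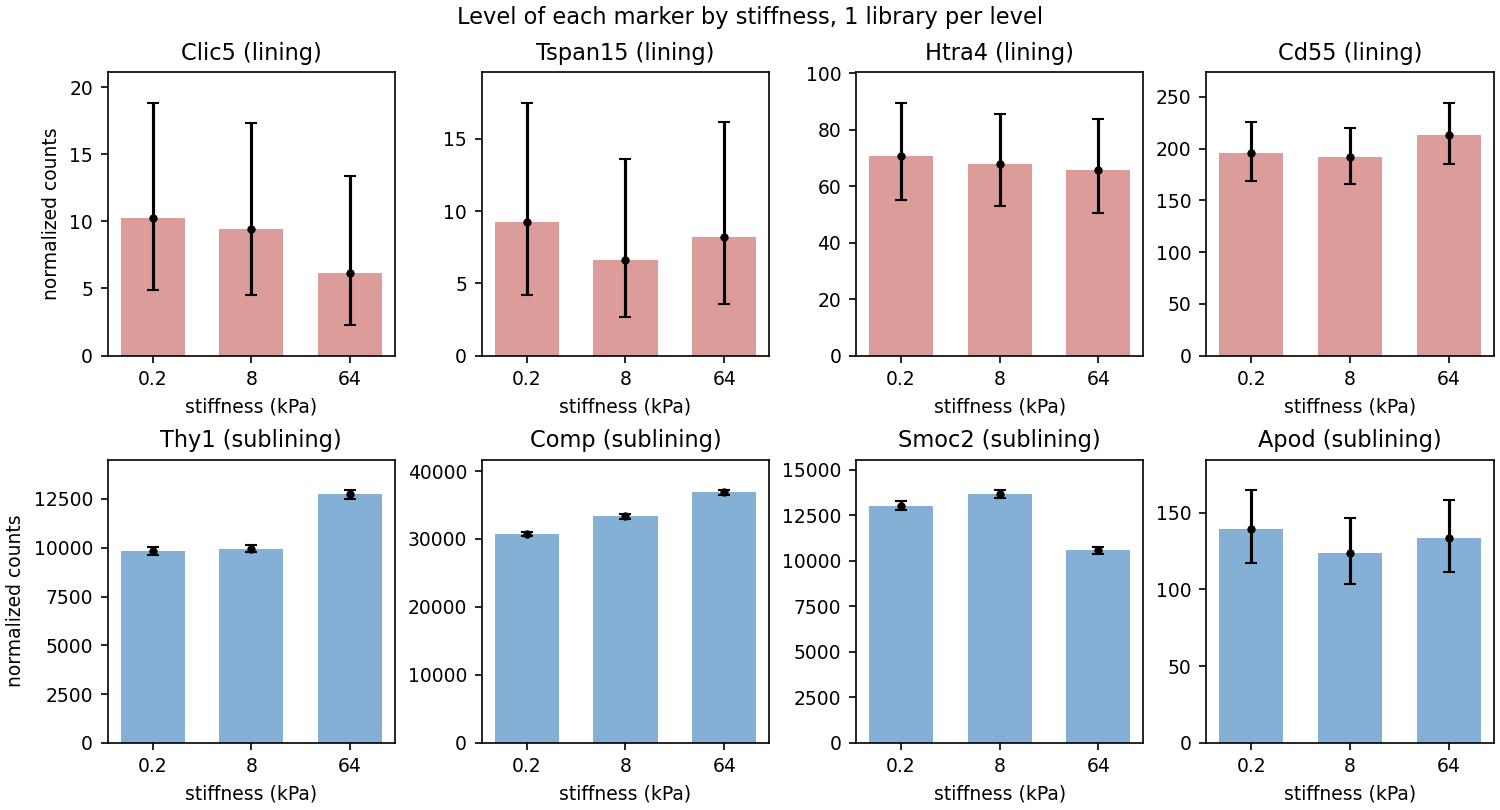
Normalized counts of each marker (bars and points) at 0.2, 8 and 64 kPa, with exact 95% Poisson intervals; each panel has its own axis starting at 0. Thy1 and Comp are highest and Smoc2 lowest at 64 kPa, while the intervals of the 4 lining markers and Apod overlap across levels.

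A gene counted as changed when the log2 ratio was at least 1 in size, a fold of 2, and it averaged at least 50 normalized counts over the 3 libraries. Of the 8 markers, 6 reached that mean, and 0 of them changed in any comparison. Over all 11873 genes with that mean, 3.6% changed from soft to stiff, 0.168% from soft to intermediate and 1.25% from intermediate to stiff. A count of 0 among 6 genes is near such shares and says nothing particular to these markers.

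Counting intervals of the ratio excluded 0 for Comp, Smoc2 and Thy1 when the stiff library was compared with either of the others, and for Comp and Smoc2 at the step from soft to intermediate. The last of these, 0.07 (0.03 to 0.10) for Smoc2, was 0.03 with scaling to the upper quartile, a shift that brings its interval to 0. These 3 genes have the most reads, so small differences are resolved for them and not for the other 5. The interval does not contain the variation between cultures.

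**Figure D3:**
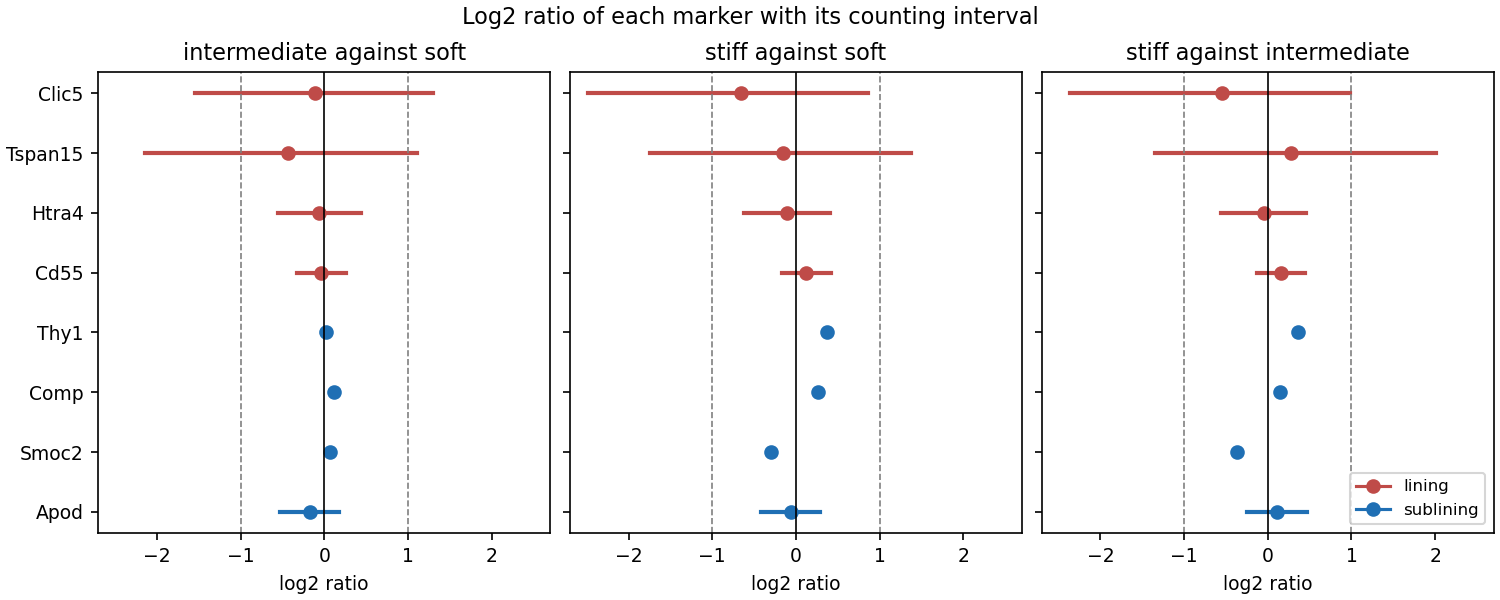
Log2 ratios (points) with exact 95% counting intervals (lines) of the lining (red) and sublining (blue) markers in the 3 comparisons; dashed lines mark the threshold of 1. The intervals of Thy1, Comp and Smoc2 are narrower than the points, and no point reaches a dashed line.

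The median stiff to soft log2 ratio of the 4 sublining markers was 0.10, with 2 above and 2 below 0, and it was 0.04 with scaling to total reads or to the upper quartile. For the 2 lining markers with a mean of at least 10, Htra4 and Cd55, it was 0.01, with 1 on each side. It was -0.05 with scaling to total reads, 0.09 with the trend subtracted and -0.13 over all 4 lining markers with no minimum mean. Over all 14291 genes with that mean the median was 0.0004, with 7269 genes above and 7021 below 0. Between intermediate and soft the sublining median was 0.04 (0.01 with scaling to the upper quartile) and the lining median -0.05, beside 0.01 over all genes. That lining median was -0.01 with the trend subtracted and -0.08 with scaling to the upper quartile. Between stiff and intermediate the sublining and lining medians were 0.13 and 0.05, beside 0.01. Here the lining median was 0.02 with scaling to total reads and 0.09 with the trend subtracted. In the stiff to soft comparison 70.6% of all genes had a ratio no larger in size than that of Thy1.

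**Figure D4:**
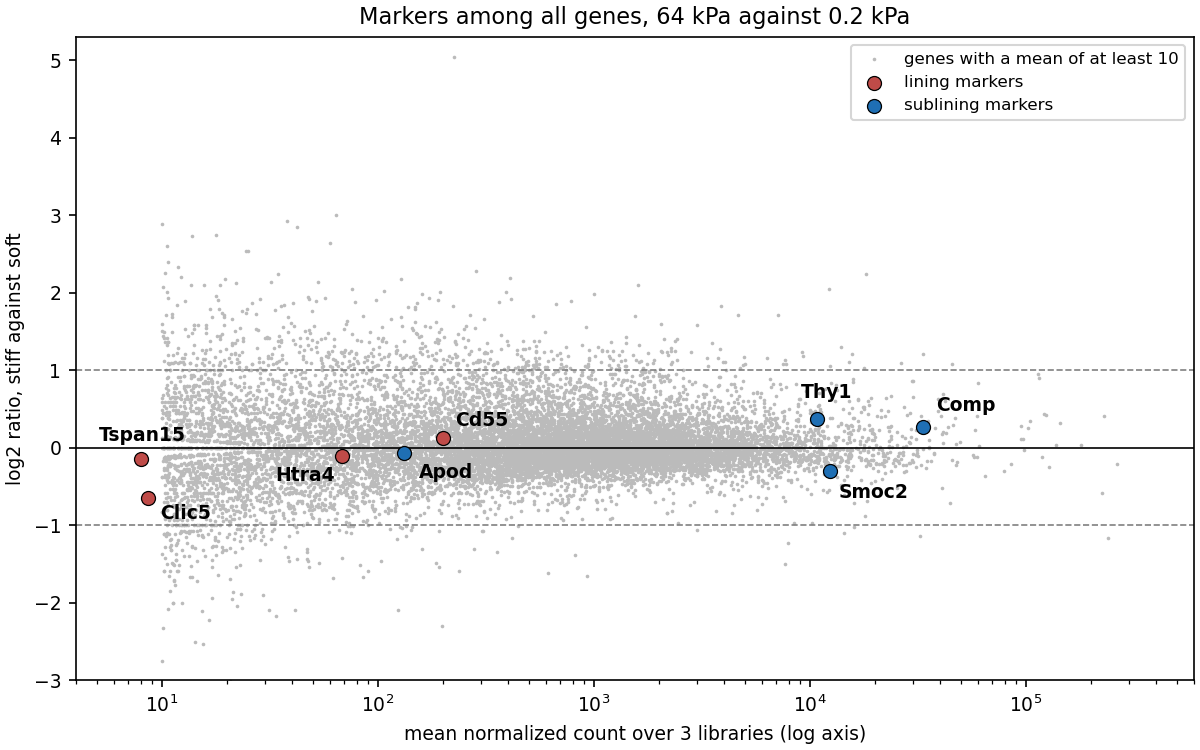
Mean normalized count (log axis) against the stiff to soft log2 ratio for the 14291 genes with a mean of at least 10 (grey), with the lining (red) and sublining (blue) markers named; dashed lines mark the threshold of 1. All 8 markers lie inside the dashed lines, with Clic5, below the mean of 10, lowest at -0.65.

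Ratios of 2 genes within a library do not depend on how libraries were scaled, and 9 such pairs were computed, chosen after the levels had been seen. Reads of Thy1 per read of Smoc2 were 0.755 at 0.2 kPa, 0.728 at 8 kPa and 1.20 at 64 kPa. The change from soft to stiff was 0.67 on the log2 scale, with a Wald counting interval from 0.62 to 0.73. For Comp to Smoc2 it was 0.56 (0.52 to 0.61), and for Thy1 to Comp 0.11 (0.07 to 0.16). From soft to stiff, Thy1 and Comp thus diverged from Smoc2 by more than they did from each other.

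THY1 and podoplanin are the pair of proteins by which the layers are commonly sorted. Reads of Thy1 per read of Pdpn were 0.426 at 0.2 kPa, 0.436 at 8 kPa and 0.508 at 64 kPa, a change from soft to stiff of 0.25 (0.21 to 0.30) on the log2 scale. The lining gene Prg4 was higher still relative to Thy1. Its reads per read of Thy1 were 0.380, 0.433 and 0.453, a change of 0.25 (0.18 to 0.32). Relative to Pdpn or Smoc2, both a sublining gene and a lining gene were therefore higher in the stiff library.

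Further markers of each layer, from lists chosen with earlier results of these data known, were set beside the 8. Of 10 other lining genes, 8 had a mean of at least 10; 6 of these were above and 2 below 0 between stiff and soft, with a median log2 ratio of 0.59. Fn1, which encodes fibronectin, rose past the threshold, from 28877 normalized counts at 0.2 kPa to 46177 at 8 kPa and 61089 at 64 kPa, a log2 ratio of 1.08 (1.06 to 1.10). Fn1 is a general matrix gene and was the only one of the list to pass. With the trend of ratios with length and GC content subtracted Fn1 was at 0.46, and none of the list passed. Prg4 stood at 3742, 4311 and 5770 normalized counts, a ratio of 0.62, and Timp3, an inhibitor of metalloproteinases, at 14496, 13446 and 22164, a ratio of 0.61. The pair below 0 was Vcam1, an adhesion molecule, with a ratio of -0.49, and Tm4sf1, a membrane protein, with one of -0.71.

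The list of 15 other sublining genes moved less. Of the 14 with a mean of at least 10, 10 were above and 4 below 0 between stiff and soft, the median was 0.15, and none passed the threshold. The chemokine gene Cxcl12 stood at 4749 normalized counts at 0.2 kPa, 5311 at 8 kPa and 7729 at 64 kPa, a ratio of 0.70. The ratios of the more abundant Cxcl14, Ly6a, Gsn and Mfap5 lay between -0.03 and 0.23. Of the 4 genes below 0, Dcn, at -0.44, and Clec3b, at -0.30, were the lowest. Once the trend with length and GC was removed, the medians were 0.49 for other lining and 0.06 for other sublining genes. The difference between these lists was not tested.

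General fibroblast genes gave a scale for both layers. All 12 had a mean of at least 10, 7 were above and 5 below 0 between stiff and soft, with a median of 0.18, and none reached the threshold. Col1a1 was nearest to it, with 78648, 110715 and 151834 normalized counts in order of stiffness and a ratio of 0.95. Its partner chain Col1a2 had a ratio of 0.28. Of the 5 genes below 0, Cdh11, at -0.65, and Fap, at -0.52, were the lowest (-0.62 and -0.38 with the trend subtracted). With the trend subtracted Col1a1 was at 0.44 and Col1a2 at 0.01, and the median of the list was 0.03.

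**Figure D5:**
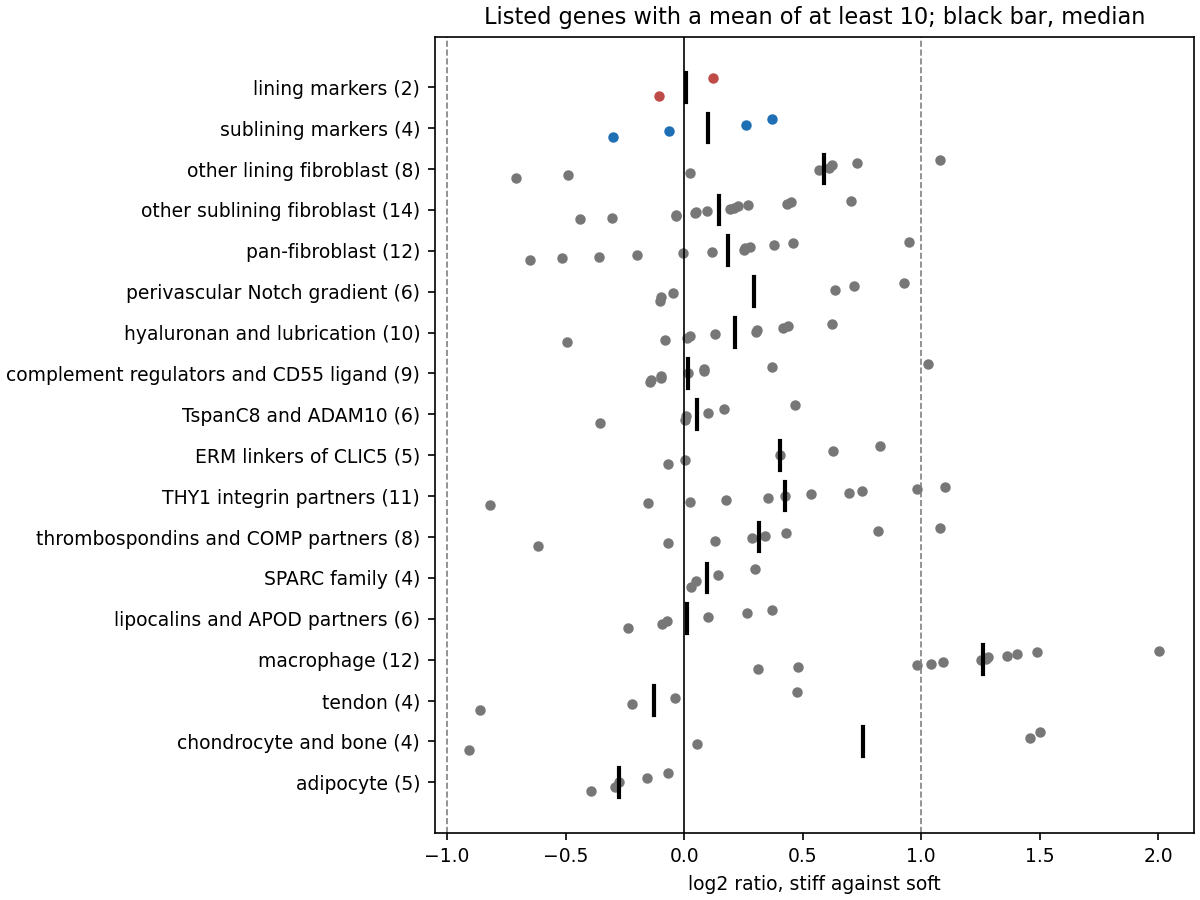
Stiff to soft log2 ratio of each listed gene with a mean of at least 10 (points), by list, with the number of genes in brackets, medians as black bars and dashed lines at the threshold of 1. Points of the lining and sublining markers lie between -0.30 and 0.37, and the macrophage median lies at 1.26.

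Relatives and partners of each marker were set beside it. In the chloride intracellular channel family Clic4 had 13787, 14577 and 16681 normalized counts and Clic1 7610, 7759 and 7888 in order of stiffness. Clic5 was at 10 reads or fewer in the same libraries, and its other listed relatives were as scarce, Clic3 with 2, 3 and 2 reads and Clic6 with 1, 2 and 5. Of the ezrin family and its linkers, 5 of 6 had a mean of at least 10, and 4 were above 0 between stiff and soft. Moesin (Msn) was the most abundant, with a ratio of 0.41, and the adaptor Nherf1 had one of 0.83.

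Tspan15 belongs to the tetraspanins that accompany ADAM10. Among its relatives Tspan5 had 1651, 1648 and 1291 normalized counts and Tspan17 1132, 1153 and 1272, and Adam10 itself stood at 5258, 5357 and 5280. Tspan14 had 1079, 1096 and 1158, while Tspan33, with 4, 2 and 2 reads, and Tspan10, with no read, were below Tspan15. Of the 6 listed genes with a mean of at least 10, 5 were above 0 between stiff and soft and none passed the threshold. In the HtrA family Htra1, Htra2 and Htra3 stood between 805 and 1899 normalized counts in every library, all above Htra4, with stiff to soft ratios between -0.21 and 0.27.

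Complement regulators other than Cd55 were partly abundant. Serping1, the inhibitor of the first complement protease, had 8693, 9214 and 9225 normalized counts, and Cr1l, which shares the role of CD55 in the mouse, had 2350, 2331 and 2197. Adgre5, a receptor that binds CD55, had 1718, 1865 and 1736. The complement component C3 rose past the threshold, from 520 at 0.2 kPa to 737 at 8 kPa and 1061 at 64 kPa, a log2 ratio of 1.03 (0.88 to 1.19). With the trend subtracted C3 was at 0.84, below the threshold. Of the 9 genes of this list with a mean of at least 10, 5 were above and 4 below 0, with a median of 0.01.

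Integrins and other partners of THY1 had a median stiff to soft log2 ratio of 0.43 over 11 genes, 9 of them above 0. Itgb2, the beta chain of leukocyte integrins, rose past the threshold, from 1557 to 1997 and 3337 normalized counts, a ratio of 1.10, and it moved with the macrophage genes given above. Itga5 and Itgav, chains that pair with beta integrins of fibroblasts, had ratios of 0.75 (0.46 with the trend subtracted) and 0.53, and Itgb1 and Sdc4 had 0.18 and -0.15. Itgb3, named after its values were seen, had 4192, 4484 and 2377 normalized counts, a ratio of -0.82, which passed the threshold at -1.02 with the trend subtracted.

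Of the thrombospondin list 8 genes averaged at least 10 normalized counts, and 6 were above 0 between stiff and soft, with a median of 0.31. Thbs1 had 107956, 112973 and 145515 normalized counts, a ratio of 0.43, and Thbs4, a thrombospondin also made in tendon, had 8933, 11230 and 11315, a ratio of 0.34. With the trend subtracted both were at 0.21 and the median of the list at 0.20. Thbs2 was lower in the stiff library, with 16141, 16782 and 10534 and a ratio of -0.62. That order, with the lowest level at 64 kPa, is the one seen for Smoc2.

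Of the SPARC family, to which Smoc2 belongs, 4 genes had a mean of at least 10, and all 4 had a ratio above 0 between stiff and soft, between 0.03 and 0.30. Sparc stood at 179007, 177439 and 182698 normalized counts. Smoc1, the closest relative of Smoc2, had 486, 593 and 504, a ratio of 0.05 (-0.13 to 0.24). Once the trend with length and GC was removed, the median of these 4 was -0.01.

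Lipocalins and partners of apolipoprotein D were evenly split, with 3 of 6 above 0 and a median of 0.01. Lcn2, a lipocalin that binds iron carriers, had 1431, 1455 and 1214 normalized counts, above Apod in each library. Bsg, a receptor for apolipoprotein D, had 21011, 20905 and 19974, a ratio of -0.07.

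Genes of nearest pattern were sought for Cd55 and Thy1. Each had the stiff to soft ratio of largest size among the markers of its layer with a mean of at least 50. The distance was that between pairs of log2 ratios to the soft library, over 10637 named genes with a mean of at least 100. The nearest to Cd55 were Pot1b, Tsr3 and Vopp1, and Sqstm1 and Cnst were among the nearest to Thy1. With 3 libraries such likeness is common: 1084 genes lay within 0.1 of Cd55 and 275 within 0.1 of Thy1.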

How the data were processed

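The deposited signal values are gene counts that the authors divided by 1 size factor per library, per the file names. The submitters' processing notes name bcl2fastq 2.20.0, STAR 2.7.9a, featureCounts, Subread 2.0.1, DESeq2 1.34.0 and the build GRCm39. The annotation used for counting is not given in the sources used here. The 3 deposited tables were identical, with a column per library assigned by its title. Dividing each column by its smallest value above 0 gave whole numbers, within 0.001, for 100% of values, and these were taken as reads. A test on these reads needs replicates and was not made.

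Ratios used a pseudocount of 1 and understate the change of low genes. Positions and lengths came from GENCODE vM39 of GRCm39, matched by symbol. Markers and 24 further lists were chosen with earlier results of these data known. Named genes were the 8 markers, 5 reference genes, listed genes past the threshold, the most abundant of each list and up to 4 further abundant ones; any other listed gene named was chosen after its values were seen. The length and GC trend was a robust local linear fit over 300 neighbouring genes, made for 14000 of 14291 genes. TMM factors came from edgeR 4.0.16. Steps were tested on simulated data. Python 3.11.15 was used.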

Additional observations from a re-analysis of the deposited data

How the results depend on the processing

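Pseudocounts of 0.1 and 10, scaling to total reads, by TMM and by the upper quartile, and subtraction of the length and GC trend left 0 of the 6 markers with a mean of at least 50 past the threshold in every comparison, as did thresholds of 0.5 and 2. With no minimum mean, 0 of the 8 passed the threshold of 1. At 0.5 Clic5, at -0.65 and -0.54 in the comparisons with the stiff library, would pass but for its low mean. With a pseudocount of 10 Clic5 was at -0.33 and -0.27, below 0.5 in size. The trend was not computed for Clic5 and Tspan15. The 6 medians of lining and sublining markers have no counting interval of their own. They stayed between the medians of the lower and of the upper limits of the markers' intervals. This held under the pseudocounts, scalings, trend and absence of a minimum mean, the settings under which the medians were computed. Of 24 marker ratios, 17 stayed within their counting intervals and 7, all of Thy1, Comp or Smoc2, left theirs under at least 1 alternative. The sign changed for 3 ratios: Thy1 and Cd55 between intermediate and soft and Apod between stiff and soft. The background counts of 20, 428 and 148 genes (intermediate against soft, stiff against soft, stiff against intermediate) depended on the thresholds by construction. They were 215, 822 and 451 with a minimum mean of 10, 8, 238 and 72 with a minimum of 200, and 3646, 5827 and 3904 with none. They were 546, 1850 and 1050 at a threshold of 0.5 and 1, 17 and 8 at a threshold of 2. Between intermediate and soft the count was 10 with a pseudocount of 10 and 13 with the trend subtracted; the cause was not tested. Depth limits any statement on Clic5 and Tspan15. No paired analysis was possible because each level had 1 library, and for the same reason no replicate could be left out.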

Other observations

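Notch signalling between vessels and fibroblasts is known to set up a gradient across the sublining, with Notch3 as its receptor in fibroblasts near vessels. Of 12 Notch genes, 6 had a mean of at least 10. Notch3 stood at 529 normalized counts at 0.2 kPa, 601 at 8 kPa and 512 at 64 kPa, a stiff to soft log2 ratio of -0.05, which was -0.83 once the trend with length and GC was removed. Notch2 had 1317, 2202 and 2509, a ratio of 0.93, which was 0.23 with the trend subtracted, and Notch1 had one of 0.64, which was -0.11. The ligand gene Jag1 had a ratio of 0.72 and the target Hes1 one of -0.10, and the endothelial ligand gene Dll4 had no read.

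Hyaluronan and lubrication genes cover products for which the lining is known. Of 10 with a mean of at least 10, 8 were above 0 between stiff and soft, and the median of 0.21 became -0.03 with the trend subtracted. Has2, a hyaluronan synthase, had 7557, 8100 and 5360 normalized counts, a ratio of -0.50. Cd44, the hyaluronan receptor, had 16194, 17685 and 21974, a ratio of 0.44.

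Adipocyte genes were present in the sorted cells, with a sum over 6 genes of 6467 normalized counts at 0.2 kPa, 6288 at 8 kPa and 5388 at 64 kPa. Endothelial genes summed to 57.4, 79.2 and 88.2, with Kdr at 21, 27 and 45 reads, Pecam1 at 12, 13 and 4 and Cdh5 at 5, 3 and 0, and keratinocyte genes to 70.7, 63.2 and 62.6. Mural genes summed to 1910, 2772 and 2720, of which Cspg4 made up most. The skeletal muscle sum of 176, 307 and 640 was mostly Acta1, which rose past the threshold at 1.88, while Myh4 had no read. In the list of Schwann and nerve genes, which summed to 514, 553 and 798, Mbp rose past it at 1.22. The T, B and mast cell sum of 1176, 799 and 789 was mostly Mcpt8.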
